A study of Bos taurus with 17 samples.

Results

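Genes of the BCL2 family, which hold the balance between survival and death of a cell at its mitochondria, were described in cow cumulus cells at 3 stages of oocyte competence. The genes listed were BCL2, BCL2L1, MCL1 and BCL2A1, which protect the cell, BAX and BAK1, which open the outer mitochondrial membrane, BID, BAD and BCL2L11, which set off or release these effectors, and BNIP3. Oligos of the array were chosen by the gene name that the design gives, or by the description where the name is a LOC number. This rule found 8 oligos of 7 genes, and 3 oligos named after a clone or an MGC number, whose description names BCL2, BCL2L1 or BAD, were added. The genes were thus read by 11 oligos of 9 genes among the 21475 oligos of the array, and no oligo was matched to BID, which was not analysed here.

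Cumulus cells were taken from compact complexes of Bos taurus calves aged 3 to 6 months with immature oocytes of low developmental competence (NC1, n = 6), from compact complexes of adult cows of different ages with immature competent oocytes (C1, n = 6), and from expanded complexes of superovulated, non-lactating Holstein cows aged 3 to 5 years with metaphase II oocytes (C2, n = 5). NC1 and C1 complexes were aspirated after slaughter, without hormone treatment being described, whereas C2 complexes were recovered by ovum pick-up in vivo from larger follicles after progestagen implants, an FSH/LH preparation and prostaglandin. Stage, age and competence of the oocyte between NC1 and C1, and stage, hormone treatment, follicle size and collection between C1 and C2, cannot be told apart. Age and source of the animals also changed between C1 and C2, and breed and lactation are described for C2 only. Between NC1 and C2, stage, age, competence, hormone treatment, follicle size and collection cannot be told apart. Each sample was hybridised to 1 one-colour Agilent array, and signals are given as log2 scaled signal, in which 0 is the signal of the array's median oligo.

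In healthy cells, BCL2, the protein of BCL2L1 (BCL-XL), MCL1 and the protein of BCL2A1 (BFL1 or A1) bind and restrain BAX and BAK. BH3-only proteins such as BAD and the protein of BCL2L11 (BIM) occupy the pro-survival proteins, and BAX and BAK then form pores through which cytochrome c leaves the mitochondrion and starts the caspase cascade. BNIP3, a BH3-like protein of the outer mitochondrial membrane, is best known as a receptor for the removal of mitochondria by autophagy and as a target of the hypoxia response. In the ovary, apoptosis of granulosa cells accompanies follicular atresia, and cumulus cells depend on survival signals from the follicle and the oocyte.

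Oligos of 5 genes are shown with their array numbers, 5′ to 3′. Each spans 60 bases, of which the first 30 are given for BCL2L1, BCL2L11 and BNIP3 oligo A_73_102715 and all for the others. They were copied from the deposited table, and no part of them is marked by capitals. Shown are BAX, BCL2A1 and BCL2L11, each read by a single oligo, and BCL2L1, whose oligo is named after a clone. BNIP3, which passed in no comparison, is shown with its 2 oligos, which differ in sequence. The oligos of BAK1, BAD and MCL1, also 1 for each gene, and the 2 of BCL2 are not shown.
BCL2L1, A_73_119599: agcccacactttttccagctctttgaaata
BCL2A1, A_73_102275: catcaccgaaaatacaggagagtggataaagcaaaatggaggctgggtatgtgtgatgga
BAX, A_73_114496: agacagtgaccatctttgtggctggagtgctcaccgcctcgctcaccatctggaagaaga
BCL2L11, A_73_120639: catgtggccgattttccaacggaagcttga
BNIP3, A_73_102715: atggtattaacatacggtttaaaactaaac
BNIP3, A_73_119688: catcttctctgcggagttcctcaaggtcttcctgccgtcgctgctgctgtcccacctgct
The whole BAX oligo had a GC content of 55.0% and was open, without a stop codon, in 2 of its 3 forward frames, as was the BCL2A1 oligo with a GC content of 45.0%. The whole BCL2L1 oligo had a GC content of 41.7% and 1 open frame, and that of BCL2L11 had 45.0% and 1 open frame. Of the BNIP3 oligos, A_73_119688 had a GC content of 60.0% and 3 open frames, and A_73_102715 had 38.3% and 1 open frame. No coordinates can be set, since no build is named for the array design.

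The 5 C2 arrays stood apart from each other. Replicates 1 and 5 (SD of their log2 difference over oligos 0.444) and replicates 3 and 4 (0.512) were close pairs, whereas every other pair of C2 arrays differed by 1.05 to 1.27, against 0.431 to 0.694 among NC1 and 0.453 to 0.756 among C1 arrays. C2 replicates 1, 2 and 5 were scanned on day 1 and replicates 3 and 4 on day 2, with 3 arrays of each compact stage on each day. Of the cumulus expansion genes, 4 of 4 tested were higher at C2 than at C1 stage, and of 9 cumulus and granulosa genes 5 were lower at C2 stage and all were detected on every array. Among all oligos tested, 15.3% were higher and 12.8% lower at C2 than at C1 stage (limma adjusted p under 0.01). Oocyte markers summed to 52.0 to 123 times the array median signal at NC1, 4.97 to 48.3 at C1 and 3.26 to 7.74 at C2 stage. Red blood cell markers summed to 28.2 to 130 at NC1, 73.0 to 258 at C1 and 3.24 to 51.6 at C2 stage. Of the 2 tested, HBA had a log2 difference of -4.01 between C2 and C1 (limma adjusted p = 7.5e-05). The other, HBG, gave 0.46 and did not pass (limma adjusted p = 0.185). Theca and stroma markers summed to 130 to 264, 179 to 281 and 227 to 527. Of the 6 tested, LUM alone passed for C2 against C1 (3.79, limma adjusted p = 5.4e-06). The median log2 difference of the 6 was -0.49, and the other 5 did not pass. In these bulk samples, fewer cells of a type and less RNA per cell cannot be told apart. The part of these differences in the results was not tested.

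Among the members, 7 genes had an oligo detected at every stage, on at least 80% of its arrays, and were tested with the 13865 oligos that met this rule. In comparison to C1, BCL2L1, BAX and BCL2L11 were up-regulated at C2 stage, and no member was down-regulated (limma, Benjamini-Hochberg adjusted p under 0.01). These 3 of 7 genes stood beside 28.1% of all oligos tested that passed the same threshold, 15.3% higher and 12.8% lower. In comparison to NC1, 2 of 7 genes were higher at C2 stage, BCL2L1 and BAX, beside 28.1% of all oligos, 15.5% higher and 12.6% lower. No member differed between C1 and NC1, where 0.0577% of all oligos passed. By the F test over the 3 stages, BCL2L1, BAX and BCL2L11 passed, 3 of 7 genes beside 28.6% of all oligos. The median log2 difference of the 7 genes was 0.59 for C2 against C1, beside 0.02 for all oligos, 0.75 for C2 against NC1, beside 0.11, and 0.15 for C1 against NC1, beside 0.05.

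**Figure D1:**
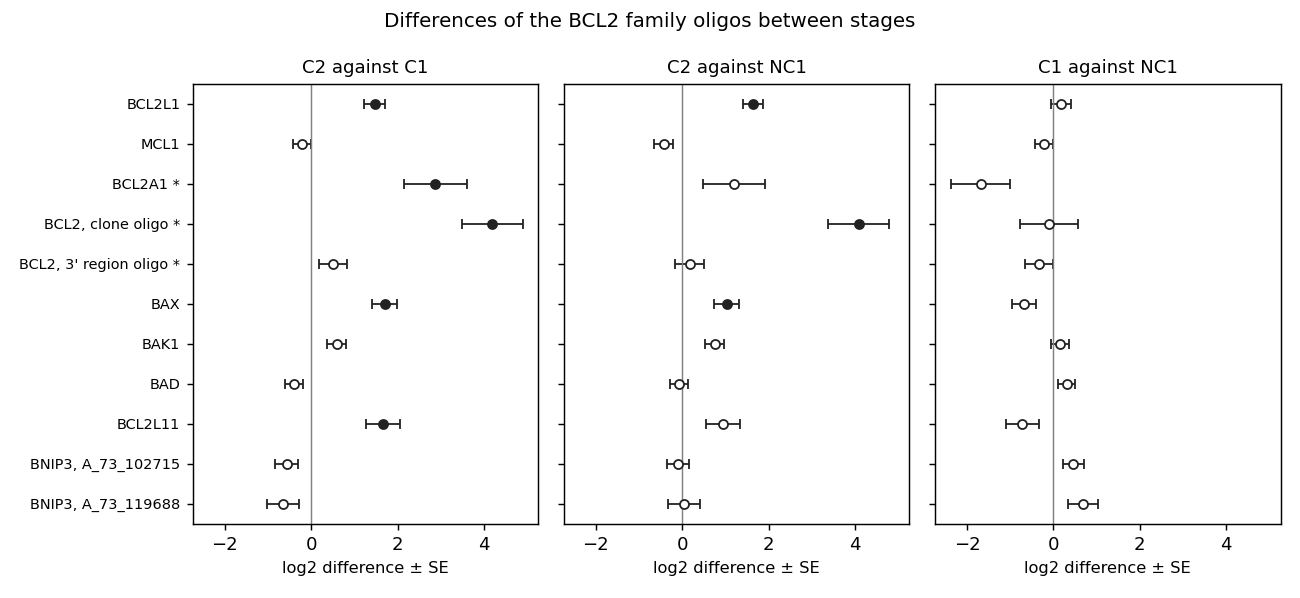
Log2 difference (x axis, with its SE) of each oligo in the 3 comparisons, with filled points for an adjusted p under 0.01 and an asterisk for oligos fitted on a wider set because they were not detected on enough arrays. BCL2L1 and BAX were filled, to the right of 0, in both comparisons of C2, and BCL2L11 in the comparison with C1. Of the oligos with an asterisk, BCL2A1 was filled for C2 against C1 and the BCL2 clone oligo in both comparisons of C2. Signal near background limits both. No point was filled for C1 against NC1.

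Among the pro-survival genes, BCL2L1 had the clearest change. Its log2 scaled signal was 2.53 to 3.60 at NC1 stage, with a median of 2.82, and 2.81 to 3.49 at C1 stage, with a median of 3.02. At C2 stage the 5 arrays gave 4.16, 5.31, 4.74, 4.42 and 4.01 for replicates 1 to 5. Every C2 array was thus above all 12 arrays of the compact stages, as also held for 21.6% of all oligos against C1 and 20.9% against NC1 in either direction, and replicate 2 was the highest. BCL2L1 was 2.77-fold higher at C2 than at C1 stage (log2 difference 1.47, SE 0.24, limma adjusted p = 8.3e-05) and 3.12-fold higher than at NC1 stage (log2 difference 1.64, SE 0.24, limma adjusted p = 2.7e-05). In both comparisons p was 0.00433 in the exact permutation test, the smallest that 5 arrays against 6 can reach. On the 5 slides that held arrays of both stages, C2 exceeded C1 by 0.67 to 2.38, and within the scan days by 1.42 and 1.54. Between C1 and NC1 the difference of 0.17 (SE 0.23, limma adjusted p = 0.869) was smaller than the spread between arrays. Only a test that allows unequal spreads left BCL2L1 just outside the threshold for C2 against C1 (adjusted p = 0.0116).

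MCL1, whose short-lived protein restrains BAK in particular, passed in no comparison of the main fit. Its signal was 8.22 to 8.48 at NC1 stage (median 8.30), 7.65 to 8.66 at C1 stage (median 8.05), and 8.20, 7.10, 7.79, 8.25 and 8.11 on the C2 arrays. The stages overlapped, the 6 NC1 arrays lay within 0.25 of each other, and C2 replicate 2, the highest array for BCL2L1, was the lowest for MCL1. The log2 difference was -0.22 (SE 0.21, limma adjusted p = 0.449) for C2 against C1 and -0.43 (SE 0.21, limma adjusted p = 0.119) for C2 against NC1. After quantile normalization the latter was -0.70 and passed the threshold (adjusted p = 0.0029). In the main values, 4 of 5 C2 arrays were below all NC1 arrays (exact permutation p = 0.013). C2 was lower than NC1 on 5 of 5 slides, with differences of -1.24 to -0.011.

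BCL2A1, a survival gene known best from leukocytes and as a target of NF-kappaB, was too dim for the main set of oligos, being detected on 5 of 6 NC1, 4 of 6 C1 and 4 of 5 C2 arrays. It was fitted with the 15256 oligos detected in at least 2 of the 3 stages. Its signal was -3.88 to -1.64 at NC1 stage (median -2.34) and -4.59 to -3.56 at C1 stage (median -4.31). On the C2 arrays it was -1.35, -5.09, 0.06, 0.36 and -0.49. Replicate 2 was below all arrays of the other stages and was not well above background, while the other 4 C2 arrays were above all of them. BCL2A1 entered the wider set through NC1 and C2, the stages where its mean was higher, so its call against C1 is only a description. Its mean at C2 exceeded that at C1 by 2.88 on the log2 scale (SE 0.72, limma adjusted p = 0.0039, exact permutation p = 0.0303). Of the oligos of this set, 28% passed. The size rests on C1 signals near background. C2 exceeded C1 on 4 of 5 slides, with -0.50 on the slide of replicate 2, and by 1.99 and 4.27 within scan days 1 and 2. The call was lost without C2 replicate 3 (2.54, adjusted p = 0.014), 4 (2.46, adjusted p = 0.014) or 5 (2.67, adjusted p = 0.011), and with the close pairs of C2 arrays averaged (2.25, adjusted p = 0.042). Against NC1 the difference was 1.20 (SE 0.72, limma adjusted p = 0.200), and 2.14 without C2 replicate 2 (adjusted p = 0.00068). For C1 against NC1 the difference was -1.68, which did not pass over all oligos (SE 0.69, limma adjusted p = 0.363; exact permutation p = 0.0065), although it was lower on 6 of 6 slides.

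BCL2, the founding survival gene of the family, was read by 2 oligos, both outside the main set. The oligo named after a clone (A_73_105383) was well above background on 0 of 6 NC1, 2 of 6 C1 and 5 of 5 C2 arrays. Its signal was -5.47 to -3.76 at NC1 stage (median -4.77) and -5.47 to -4.37 at C1 stage (median -4.70). The C2 arrays gave -2.77, 2.04, 0.95, -0.15 and -3.01, all above the compact stages, and spread over 5.05 on the log2 scale. With all 21475 oligos in the fit, the difference was 4.19 (SE 0.70, limma adjusted p = 0.00015) for C2 against C1, beside 21.2% of oligos past the threshold and 18.7% with no overlap of arrays. Against NC1 it was 4.09 (SE 0.70, limma adjusted p = 0.00021), beside 20.5% past the threshold and 16.7% with no overlap. The sizes of both rest on signals near background at the compact stages. With another background correction they were 1.59 against C1 (adjusted p = 0.0051) and 1.25 against NC1, where the call was lost (adjusted p = 0.023). The oligo that the design places in the region 3′ of BCL2 (A_73_117866) was detected on 0 of 6, 1 of 6 and 1 of 5 arrays and ranged from -5.80 to -4.01 over the 3 stages, so the oligos did not agree on a change. Its difference between C2 and C1 was 0.51 (SE 0.33, limma adjusted p = 0.250).

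**Figure D2:**
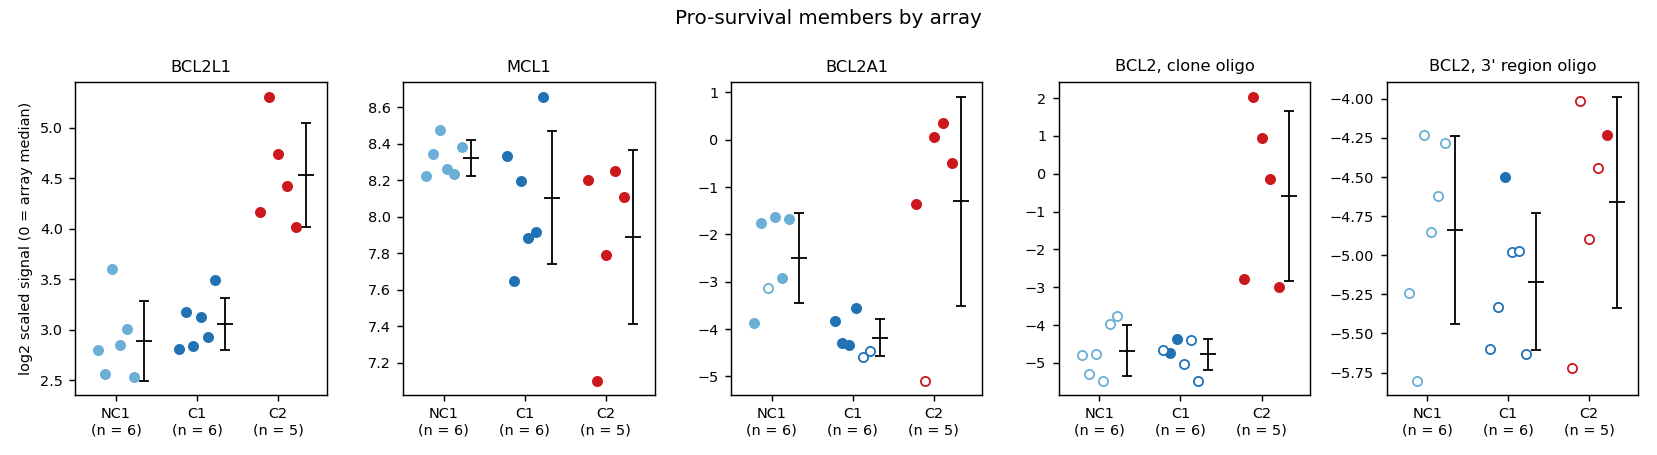
Log2 scaled signal (y axis) of the oligos of pro-survival genes on each array, by stage, with open points for arrays not well above background and bars for the mean and SD. The C2 arrays of BCL2L1 and of the BCL2 clone oligo lie above all others, MCL1 overlaps between stages, and 1 C2 array of BCL2A1 lies at -5.09.

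Of the effectors, BAX rose at C2 stage and BAK1 stayed outside the threshold. BAX, which moves from the cytosol to mitochondria when activated, had a signal of 0.26 to 1.71 at NC1 stage (median 0.80) and of -0.39 to 1.23 at C1 stage (median 0.19). The C2 arrays gave 1.82, 2.61, 1.94, 1.85 and 1.62, close to each other for this stage. Each of them was above all C1 arrays, and 4 of 5 were above all NC1 arrays. BAX was 3.25-fold higher at C2 than at C1 stage (log2 difference 1.70, SE 0.29, limma adjusted p = 0.00014; exact permutation p = 0.00433) and was higher on 5 of 5 slides, by 0.70 to 2.24, and by 1.78 and 1.60 within scan days 1 and 2. Against NC1 the difference was 1.02 (SE 0.29, limma adjusted p = 0.0093; exact permutation p = 0.0087). This second call was marginal: it was lost in 12 of the 17 refits without 1 array (lowest value 0.86, without C2 replicate 2) and with the other scalings, and within scan days 1 and 2 the difference was 0.65 and 1.38. For C1 against NC1 the difference was -0.68 and did not pass (SE 0.28, limma adjusted p = 0.411).

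BAK1, an effector that resides on mitochondria, had a signal of 2.94 to 3.52 at NC1 stage (median 3.22) and of 3.15 to 3.59 at C1 stage (median 3.38). The C2 arrays gave 4.69, 3.93, 3.31, 3.58 and 4.42, so replicates 1, 2 and 5, scanned on day 1, were above all other arrays and replicates 3 and 4, scanned on day 2, were not. The log2 difference was 0.59 (SE 0.22, limma adjusted p = 0.0365) for C2 against C1 and 0.75 (SE 0.22, limma adjusted p = 0.0105) for C2 against NC1. Within scan days 1 and 2, C2 exceeded C1 by 0.90 and 0.11 and NC1 by 1.05 and 0.26. The part of the scan day was not tested, since replicates 3 and 4 are also a close pair. BAK1 passed the threshold in both comparisons without C2 replicate 3 (0.76, adjusted p = 0.0081, and 0.92, adjusted p = 0.0022) and with array weights (0.86, adjusted p = 0.0034, and 1.00, adjusted p = 0.0012). Against NC1 alone it passed with another background correction (0.89, adjusted p = 0.0044), with the slide as a random block (0.74, adjusted p = 0.0093), with the scan day as a block (0.71, adjusted p = 0.0084) and without C2 replicate 4 (0.85, adjusted p = 0.0069).

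Since BAX and BCL2L1 oppose each other in the cell, their difference was also taken within each array, where the scaling cancels. On the log2 scale, the change of BAX relative to BCL2L1 was -0.85 at C1 and -0.62 at C2 stage, with NC1 set to 0. The SD between arrays was 0.72 at NC1, 0.52 at C1 and 0.20 at C2 stage. BAX relative to BCL2L1 was thus higher at C2 than at C1, by 0.15 to 0.41 in refits without 1 array. Whether the 2 genes rose from C1 to C2 by equal amounts was not tested.

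Of the BH3-only genes, BCL2L11 rose at C2 stage and BAD did not. BCL2L11, whose product binds all the main survival proteins, had a signal of -0.42 to 1.20 at NC1 stage (median 0.43) and of -1.58 to 0.58 at C1 stage (median -0.11). The C2 arrays gave 1.81, 0.21, 1.26, 1.45 and 2.08. Replicate 2 lay within the range of both compact stages, and the other 4 C2 arrays were above all of them. BCL2L11 was up-regulated at C2 stage in comparison to C1 by 1.66 (SE 0.39, limma adjusted p = 0.0025; exact permutation p = 0.0087), and C2 exceeded C1 on 5 of 5 slides, by 0.08 on the slide of replicate 2 and by at most 2.85, and within scan days 1 and 2 by 1.23 and 2.08. Against NC1 the difference of 0.94 did not pass (SE 0.39, limma adjusted p = 0.0634). With the close pairs of C2 arrays averaged, an alternative added after the data were seen, the difference from C1 was 1.47 and no longer passed (adjusted p = 0.022), whereas BCL2L1 and BAX kept theirs.

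BAD, which survival kinases hold inactive by phosphorylation, had a signal of 5.08 to 5.98 at NC1 (median 5.66) and of 5.62 to 6.41 at C1 stage (median 5.84). The C2 arrays gave 5.75, 5.23, 5.31, 5.39 and 5.90, and 3 of 5 were below all C1 arrays. The difference between C2 and C1 was -0.40 (SE 0.21, limma adjusted p = 0.137). It depended on the scaling, since it passed after scaling to the 75th percentile (-0.52, adjusted p = 0.0089) and after quantile normalization (-0.59, adjusted p = 0.0022). Scaling to the 75th percentile moved the median of all oligos by -0.127 for C2 against C1 and by -0.148 for C2 against NC1. BAD differed from NC1 at C2 stage by -0.08 (SE 0.21, limma adjusted p = 0.787).

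**Figure D3:**
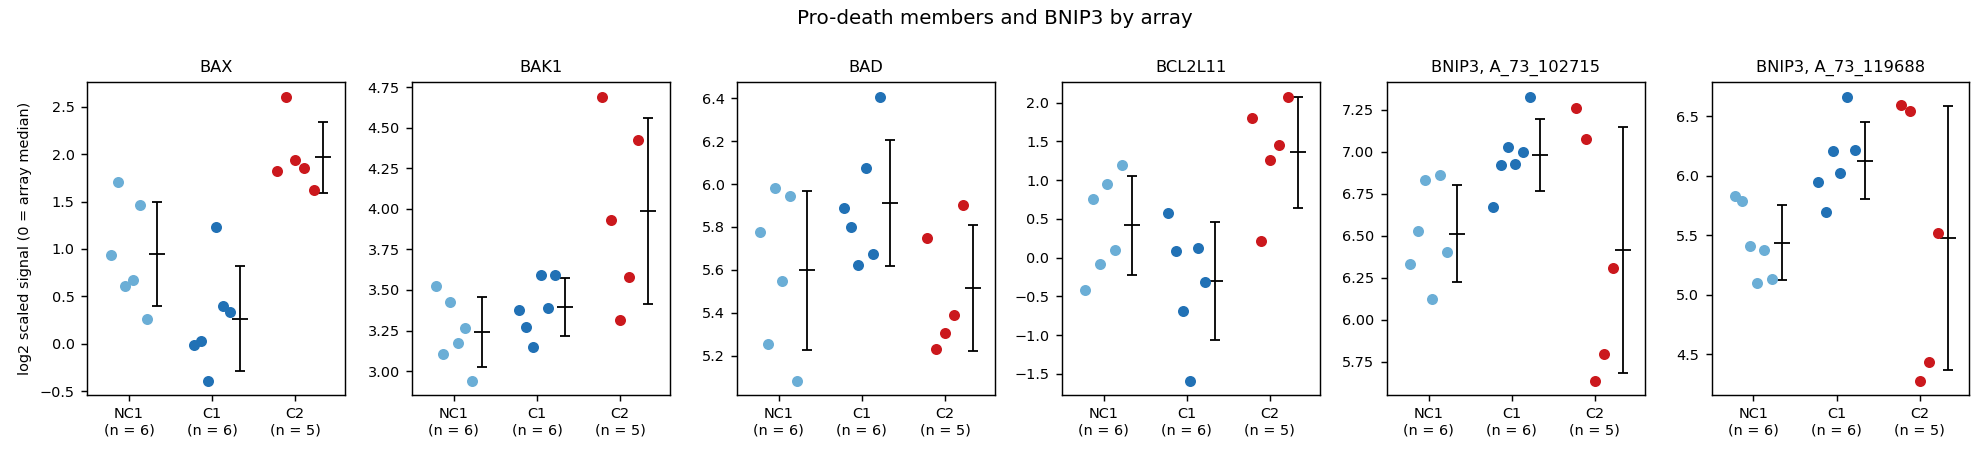
Log2 scaled signal (y axis) of the oligos of effectors, BH3-only genes and BNIP3 on each array, by stage, with bars for the mean and SD. BAX is higher on all C2 arrays than on the C1 arrays, BCL2L11 on 4 of 5, and both BNIP3 oligos split the C2 arrays into high replicates 1 and 2 and low replicates 3 and 4.

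BNIP3 was read by 2 oligos of the same gene model, both with their highest mean at C1 stage. A_73_102715 had a signal of 6.12 to 6.86 at NC1 (median 6.46) and of 6.67 to 7.33 at C1 stage (median 6.96). On the C2 arrays it was 7.26, 7.08, 5.64, 5.79 and 6.31. With A_73_119688 the C2 arrays gave 6.59, 6.55, 4.28, 4.44 and 5.52, so replicates 1 and 2 were among the high arrays and replicates 3 and 4 were the lowest of all 17 arrays with either oligo. The difference between C2 and C1 was -0.56 (SE 0.26, limma adjusted p = 0.0968) and -0.65 (SE 0.36, limma adjusted p = 0.165). It was -0.12 and -0.06 within scan day 1, and -1.24 and -1.62 within day 2. In comparison to NC1, C1 was higher by 0.47 (SE 0.25, limma adjusted p = 0.582) and 0.69 (SE 0.35, limma adjusted p = 0.551), and 5 of 6 C1 arrays were above all NC1 arrays with both oligos. The exact permutation test gave p = 0.013 and p = 0.0065 for this difference before any adjustment. By the limma fit, adjusted over all oligos, the difference was not detected.

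BCL2L11 and BCL2A1 are also expressed in leukocytes, and C2 replicate 2, with their lowest signal of the stage, was also the lowest C2 array for 10 of 13 leukocyte markers. CD79A, CORO1A and FCER1G were lowest on replicate 3. The share of all oligos that were lowest on replicate 2 was not counted, so the 10 of 13 has no background beside it. Replicate 2 differed from every other C2 array by 1.05 to 1.25 (SD of the log2 difference over oligos). Of 14 markers listed, these 13 had an oligo and 9 were tested, of which 5 were higher at C2 than at C1 and 2 higher than at NC1 stage. Of all oligos tested, 15.3% and 15.5% were higher in these comparisons. PTPRC had no oligo, and ITGAM was well above background on C2 replicate 5 alone. CD3E, of T cells, was detected on 4 of 5 C2 arrays, all but replicate 2, and on no array of the other stages. CD53, a leukocyte tetraspanin, had a signal of -1.69 on C2 replicate 2 and of 1.37 to 2.39 on the other C2 arrays. CSF1R, of macrophages, had -2.46 on replicate 2 and 0.10 to 3.25 on the others. The linear signal of the list summed to 26.3 to 49.5 times the array median at NC1, 25.0 to 46.1 at C1 and 26.1 to 71.0 at C2 stage, lowest on C2 replicate 2 and highest on replicate 5. ITGB2 and CD79A, which had the highest mean signals of the list, weigh most in this sum. They did not rise from C1 to C2 (-0.32, limma adjusted p = 0.336, and -0.18, limma adjusted p = 0.638). The part of leukocytes in the BCL2A1 and BCL2L11 results was not tested. The leukocyte markers did not share 1 level on C2 replicate 2. CORO1A (-1.39) and LYZ (-0.60) were above all NC1 and C1 arrays there, whereas CSF1R was below all of them. BCL2L1, BAX and the BCL2 clone oligo were highest on this array, and the part of leukocytes in their results was not tested either. Without C2 replicate 2, the difference between C2 and C1 was 3.82 for BCL2A1, 1.95 for BCL2L11, 1.27 for BCL2L1 and 1.54 for BAX. All 4 passed the threshold, BCL2A1 in the wider set that it entered through NC1 and C2.

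**Figure D4:**
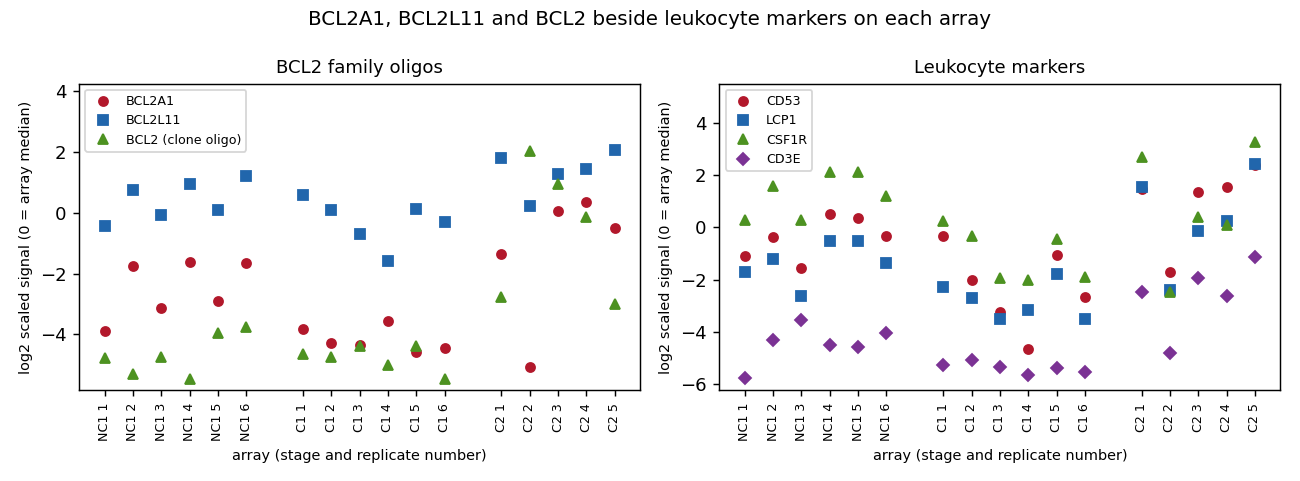
Log2 scaled signal (y axis) of 3 family oligos, left, and of 4 of the 13 leukocyte markers with an oligo, right, on each array (x axis, stage and replicate number). Among the markers not shown, CD79A, CORO1A and FCER1G were lowest on C2 replicate 3. On C2 replicate 2, BCL2A1 was at -5.09 and BCL2L11 at 0.21, their lowest values of the stage, as were CD53, LCP1, CSF1R and CD3E, while the BCL2 clone oligo was at its highest, 2.04.

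The genes with the profile most like that of the 3 members past the F threshold were named by Pearson's r over the 17 arrays, among 10877 genes. These arrays share the stages, so r is a description. For BCL2L1 they were TBC1D2B (r = 0.97), GULP1 (r = 0.97) and BTBD10 (r = 0.96), and GULP1, an adaptor for the engulfment of dying cells, differed by 1.48 between C2 and C1. BAX was followed with lower r by ATXN10, PXN and RPS6KA3 (r = 0.87 for each). For BCL2L11 they were TNFRSF12A (r = 0.96), CD53 (r = 0.93) and GMFG (r = 0.93), of which CD53 is one of the leukocyte markers given.

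Of 15 further BCL2 family genes listed, 12 had an oligo and 8 were tested, and 3 were higher and none lower at C2 than at C1 stage, with a median log2 difference of 0.09. Beside this list and those below, 28.1% of all oligos tested passed against C1 and 28.1% against NC1, in either direction. The medians of all oligos were 0.02 and 0.11. BOK, a BAX-like effector known from reproductive tissues, averaged 3.68 ± 0.61 in the 6 NC1 samples, 1.43 ± 0.47 in the 6 C1 samples and 4.86 ± 1.65 in the 5 C2 samples (mean ± SD). It was higher at C2 than at C1 by 3.42 (SE 0.54, limma adjusted p = 5.9e-05), while the difference of -2.24 for C1 against NC1 did not pass (SE 0.51, limma adjusted p = 0.0721). BMF, a BH3-only gene, was higher at C2 stage by 2.76 against C1 and 2.69 against NC1, with no overlap of arrays. Such a lack of overlap held for 21.6% of all oligos against C1 and 20.9% against NC1, in either direction. A second BMF oligo gave 0.45 and did not pass (limma adjusted p = 0.138). BCL2L13, a BCL2-like protein of the outer mitochondrial membrane, was higher by 0.91 against C1 (SE 0.22, limma adjusted p = 0.0025) and by 0.98 against NC1. The counts against NC1 were 2 higher and none lower.

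In the apoptosome and caspase list, 8 of 13 genes were tested, and 2 were higher and 1 lower at C2 than at C1 stage (median 0.27). CYCS, cytochrome c itself, rose the most. It averaged 4.92 ± 0.31 in the 6 C1 samples and 8.22 ± 1.18 in the 5 C2 samples (mean ± SD), a difference of 3.29 (SE 0.37, limma adjusted p = 1.5e-06), with 3.52 against NC1. CASP6, an executioner caspase, was higher than at C1 by 1.13 (SE 0.29, limma adjusted p = 0.0042). ENDOG, a mitochondrial nuclease, was down-regulated at C2 stage, with -1.21 against C1 and -1.14 against NC1. Its arrays did not overlap, as held for 21.6% and 20.9% of all oligos in either direction. APAF1, CASP2 and CASP8 had an oligo that was not well above background on enough arrays to be tested.

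Of the inhibitors of apoptosis and their antagonists, 5 of 7 were tested and none passed for C2 against C1 (median 0.03). DIABLO, which leaves mitochondria with cytochrome c and blocks these inhibitors, was higher than at NC1 stage by 0.83 (SE 0.23, limma adjusted p = 0.0070). A second DIABLO oligo gave -2.11 and passed in the opposite direction (adjusted p = 0.0013), so its direction is not settled. Among death receptors and adaptors, 6 of 11 were tested, and 2 were higher at C2 than at C1 and 3 higher than at NC1 stage (median 0.95 and 1.08). These were the TNF receptor TNFRSF1A (1.74 against C1, 1.98 against NC1), its adaptor TRADD (1.32 and 1.51) and, against NC1 only past the threshold, the receptor TNFRSF21 (1.21, limma adjusted p = 0.054, and 2.04). The counted oligo of the adaptor FADD did not pass against NC1 (0.65, adjusted p = 0.023), whereas a second one did (0.78, adjusted p = 0.0045).

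Among upstream genes and partners of the family, 17 of 17 were tested, and 2 were higher and 0 lower at C2 than at C1 stage (median 0.38), with 4 higher and 1 lower in comparison to NC1. YWHAZ, a 14-3-3 protein of the kind that retains phosphorylated BAD, was higher than at C1 by 1.75 (SE 0.41, limma adjusted p = 0.0021), and a second oligo gave 1.05 (adjusted p = 0.011). USP9X, a deubiquitinase of MCL1, did not pass with the counted oligo (0.59 against C1, adjusted p = 0.043), whereas oligo A_73_120789 passed with 1.12 against C1 (adjusted p = 0.00011) and 1.14 against NC1 (adjusted p = 9.1e-05). BECN1, an autophagy protein bound by BCL2, was higher by 0.83. TMBIM6, a BAX inhibitor of the endoplasmic reticulum, was higher than at NC1 by 1.08 and gave 0.78 against C1 (limma adjusted p = 0.0362).

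For the company of BNIP3, 6 of 7 mitophagy genes and 14 of 14 hypoxia-responsive genes were tested. SQSTM1, an autophagy receptor, was the only mitophagy gene past the threshold, higher at C2 than at C1 by 1.04 (limma adjusted p = 0.0051). In the hypoxia list 1 gene was higher and 3 were lower at C2 in both comparisons, with a median of -0.20 against C1. CA9, a carbonic anhydrase, fell by 3.79, VEGFA, the angiogenic factor, fell by 3.72 and EGLN3, an oxygen sensor, fell by 2.33 on the log2 scale in comparison to C1. NDRG1 rose by 2.29. A second EGLN3 oligo fell short of the threshold at -0.61 (limma adjusted p = 0.026). In none of these 7 lists did a gene pass between C1 and NC1, where 0.0577% of all oligos passed.

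**Figure D5:**
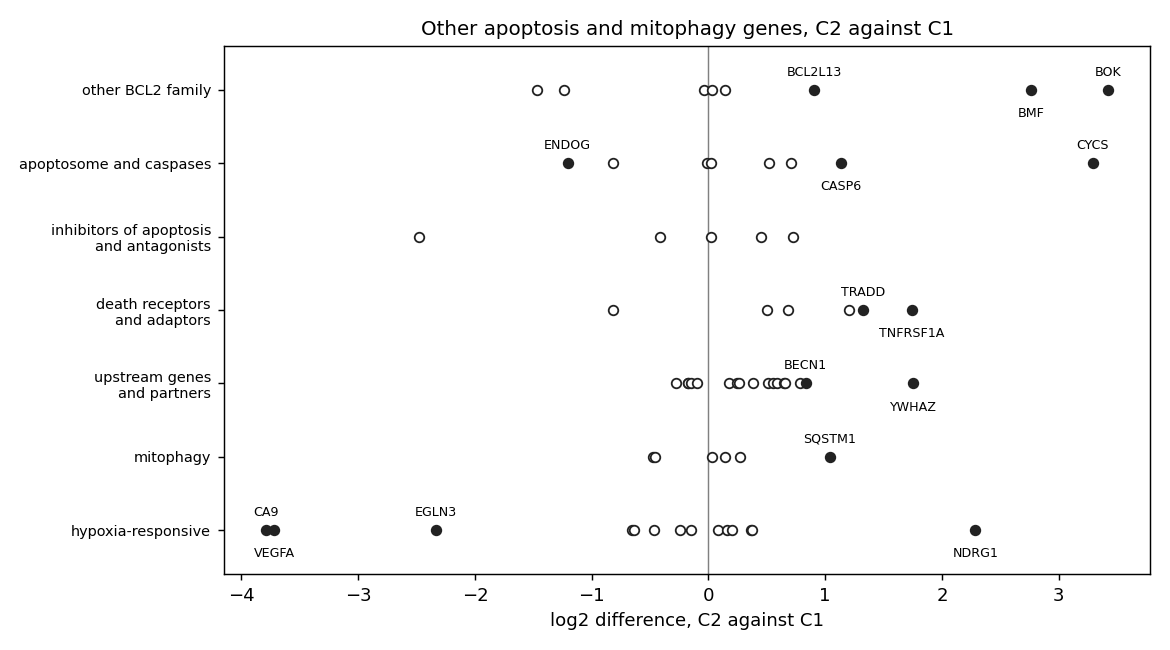
Log2 difference of C2 against C1 (x axis) for the tested genes of 7 lists, with filled points for an adjusted p under 0.01 and names for those points. BOK, CYCS and BMF lie farthest to the right, and CA9, VEGFA and EGLN3 farthest to the left among filled points.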

How the data were processed

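RNA of 17 cumulus samples was labelled with Cy3, 1 sample to an array, on 6 slides scanned on 2 days. The authors deposited intensity values for each spot from Agilent Feature Extraction 10.5.1.1, background-subtracted and not scaled between arrays, and a table of log2 values scaled by each array's median in GeneSpring. From the spots, log2 signals were averaged over the spots of an oligo, leaving out non-uniform spots and outliers, and each array's median was subtracted. An oligo was tested when it was present (well above background, uniform, not saturated) at every stage, on at least 80% of its arrays (13865 oligos), and the wider set asked this of 2 of the 3 stages (15256 oligos, those of the deposited table). Stages came from the labels. Differences were fitted in limma 3.58.1 (R 4.3.3), with the 3 stages in 1 fit, Benjamini-Hochberg adjustment over all oligos tested and a threshold of 0.01. Exact permutation tests were 2-sided (smallest p 0.00433 for 5 arrays against 6 and 0.00216 for 6 against 6). Tables and figures were made in Python 3.11.15 with scipy 1.17.1. The fit was tested on simulated data.

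Symbols came from accessions or gene numbers in a RefSeq gene list, else from the array's names and descriptions. Of several oligos of a gene, the one with the highest mean signal was counted and the others are given where they differ. In each list, up to 3 genes with the largest rise and 3 with the largest fall were named. One gene of the lists is not reported here. The members and lists were chosen with earlier results of these data known. The study's methods describe separate animals, while whether the close C2 arrays share an animal or a preparation is not given in the sources used here, and p-values measure the spread between these samples. The number of arrays limits the precision. Alternatives were other scalings, background corrections, filters, blocks, array weights, the methods' one-factor test and leaving out each array.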

Additional observations from a re-analysis of the deposited data

How the results depend on the processing

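The count of 3 members past the threshold between C2 and C1, in either direction, stayed within 2 to 4, with these exceptions. Without a filter on oligos it was 5, because both BCL2A1 and the BCL2 clone oligo entered. In a one-factor test with unequal spreads, added after the data were seen, it was 1 (BAX). With 75th percentile scaling and with quantile normalization the count was 4 by the entry of BAD, which was lower at C2 stage (-0.52 and -0.59). The count of 2 members against NC1 became 1 with 75th percentile scaling, the methods' one-factor test, the slide as a fixed block, the averaged C2 pairs and unequal spreads, in each case by the loss of BAX. It was 3 with the other background correction, the slide as a random block and the scan day as a block, by the entry of BAK1. With array weights, and without C2 replicate 3 or 4, BAK1 took the place of BAX. With quantile normalization BAX was lost (adjusted p = 0.017) and MCL1 entered as lower at C2 stage (-0.70). Without a filter on oligos BAX was lost (adjusted p = 0.014) and the BCL2 clone oligo entered. Leaving out 1 array gave 3 to 4 members against C1, 1 to 2 against NC1 and 0 for C1 against NC1. For the pathway genes the counts were 15 against C1 (13 to 20 without 1 array) and 17 against NC1 (14 to 19), with 3 and 3 under unequal spreads. Between C1 and NC1 they were 0, 3 with array weights and 0 to 1 without 1 array.

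Same-numbered samples did not deviate together (correlation -0.317 to 0.252 over 16 pairs), so the numbers were not taken as pairs. With the replicate block, members against NC1 numbered 1 (BAX 0.96, adjusted p = 0.023).

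Directions turned only for differences that did not pass. For C2 against NC1, BAD was 0.16 with the other background correction and 0.14 with array weights, the BCL2 3′ oligo -0.11 with the former and -0.017 to 0.44 without 1 array, and BNIP3 oligo A_73_102715 0.073 and 0.13 with these 2 settings, 0.013 with averaged pairs and -0.31 to 0.097 without 1 array. BNIP3 oligo A_73_119688 was -0.11 with 75th percentile scaling, -0.16 with quantile normalization, -0.036 with the slide and -0.042 with the scan day as a block, and -0.24 to 0.34 without 1 array. For C1 against NC1, MCL1 was 0.12 with the other background correction, and the BCL2 clone oligo 0.22 with array weights and -0.26 to 0.079 without 1 array. Signal near background limits both BCL2 oligos and BCL2A1. The cause of the changes was not tested.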
